A study of Mus musculus with 11 samples.

Results

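The early growth response (EGR) transcription factors and their NAB corepressors comprise 6 genes here: Egr1, Egr2, Egr3, Egr4, Nab1 and Nab2. They were taken as the probe sets whose platform annotation names exactly 1 of these symbols. No measured value enters that rule, although the family was picked with earlier results of these data known. This gave 10 probe sets, 6 for the EGR factors and 4 for the NAB genes, among 34945 probe sets with 1 symbol, which stand for 18193 genes. RNA came from splenic B cells of female mice aged 6 weeks, which had been separated magnetically by removing the remaining cell types. Each lot of cells combined 7 to 8 spleens. The cells were of 2 strains, NOD (NOD/ShiLtJ), which develops autoimmune diabetes, and NR4 (NOD.NOR-Chr4/DvsJ), the same background with a chromosome 4 segment of the NOR strain. For 2 h the cells were kept either in medium without antibody (unstimulated) or with 10 µg/ml goat F(ab')2 fragments against mouse IgM (anti-IgM), which cross-link the B cell receptor. The 11 arrays were 3 of unstimulated NR4, 3 of anti-IgM NR4, 3 of unstimulated NOD and 2 of anti-IgM NOD cells. The labels call the arrays of a group biological replicates, and each array stands for pooled animals.

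EGR factors are zinc finger proteins that bind GC-rich elements and are made within the first hour after many receptors are engaged, as products of immediate early genes. In lymphocytes their transcription follows antigen receptor signals through the MAP kinase pathway, serum response factor (SRF) and its ternary complex cofactors, and CREB family factors. NAB1 and NAB2 carry no DNA-binding domain of this kind. They bind EGR1, EGR2 and EGR3 through a repression domain that EGR4 lacks, recruit the NuRD complex, and NAB2 is itself described as an EGR target, which makes a feedback loop.

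The promoter windows show which of the elements named above lie next to these genes. RefSeq windows of build GRCm38.p6 were matched by symbol for 4 of the 6 genes, Egr2, Egr4, Nab1 and Nab2, and the 250 bases upstream of the start site are shown 5′ to 3′ on the strand of the gene. Capitals mark matches to 3 motifs, searched on both strands: the CArG box to which SRF binds, the EGR element (GCGTGGGCG or GCGGGGGCG), and the core of the cAMP response element (CRE core, TGACG). Egr2 has 5 windows in the table, of which 1 of those with the most matches is shown.
Egr2, chr10:67537619-67537868, + strand: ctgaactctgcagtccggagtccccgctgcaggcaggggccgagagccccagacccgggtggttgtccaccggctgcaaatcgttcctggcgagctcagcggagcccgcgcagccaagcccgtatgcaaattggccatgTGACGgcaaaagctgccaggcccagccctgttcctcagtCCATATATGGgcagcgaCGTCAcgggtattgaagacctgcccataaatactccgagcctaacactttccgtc
Egr4, chr6:85513590-85513839, − strand: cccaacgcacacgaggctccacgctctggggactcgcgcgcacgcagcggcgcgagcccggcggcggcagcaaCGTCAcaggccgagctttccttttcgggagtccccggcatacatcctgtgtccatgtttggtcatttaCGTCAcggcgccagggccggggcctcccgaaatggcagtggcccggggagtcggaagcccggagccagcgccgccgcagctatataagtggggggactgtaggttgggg
Nab1, chr1:52500449-52500698, − strand: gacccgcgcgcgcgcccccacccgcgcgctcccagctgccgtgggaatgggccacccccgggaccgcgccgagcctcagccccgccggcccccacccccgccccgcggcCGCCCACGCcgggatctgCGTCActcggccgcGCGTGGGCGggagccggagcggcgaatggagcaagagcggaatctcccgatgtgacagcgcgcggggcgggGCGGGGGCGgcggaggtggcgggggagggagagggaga
Nab2, chr10:127666704-127666953, − strand: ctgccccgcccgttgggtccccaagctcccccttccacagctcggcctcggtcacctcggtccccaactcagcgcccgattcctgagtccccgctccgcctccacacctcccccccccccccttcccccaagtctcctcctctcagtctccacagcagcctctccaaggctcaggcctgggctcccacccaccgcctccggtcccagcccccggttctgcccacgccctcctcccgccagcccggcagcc

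The Egr2 window holds a CArG box 72 to 63 bases before the start, which reads the same on both strands, and CRE cores at 111 to 107 and 55 to 51 bases before it. Of the other 4 Egr2 windows, 2 overlap this one and hold the same matches, 1 (chr10:67537316-67537565) holds another CArG box and no CRE core, and 1 (chr10:67535249-67535498) holds none of the 3 motifs. The Egr4 window holds CRE cores at 177 to 173 and 109 to 105 bases before its start. The Nab1 window holds 3 EGR elements, at 141 to 133, 109 to 101 and 38 to 30 bases before the start, and 1 CRE core at 123 to 119, none of them overlapping. None of the 3 motifs has a match in these letters of the Nab2 window. Over 32851 RefSeq windows of this length, 1.47% held a CArG box, 3.06% an EGR element and 17.8% a CRE core. The GC content of the windows was 61.6% for Egr2, 68.0% for Egr4, 80.8% for Nab1 and 72.8% for Nab2, against a median of 52.4% over all windows. These matches describe the letters only, and binding was not measured. A link between the motifs and the changes given below was not tested.

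Values below are the deposited log2 signals, in which every probe set had been centred on its median over the 11 arrays. A value of 0 is therefore the middle array, not absence, and the level of 1 gene cannot be set against that of another or against background. Where a gene has several probe sets, their median was used. Changes are anti-IgM minus unstimulated, the averaged response is the mean of the changes in the 2 strains, and a gene is called where limma's Benjamini-Hochberg adjusted p over all 18193 genes was below 0.05. Members are given by role, first the EGR factors and then the corepressors.

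Egr2 and Egr1 rose in the averaged response, and Egr3, Egr4, Nab1 and Nab2 did not pass the test. Thus 2 of the 6 genes were called higher, beside 0.715% of all genes, and 0 were called lower, beside 0.841%. In NR4 alone Egr2 was called, 1 of 6 beside 0.165% of all genes called higher, and in NOD alone again Egr2, 1 of 6 beside 0.0989%. The median change of the 4 EGR factors was 0.29, of the 2 NAB genes 0.34, and of all genes 0.0034.

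**Figure D1:**
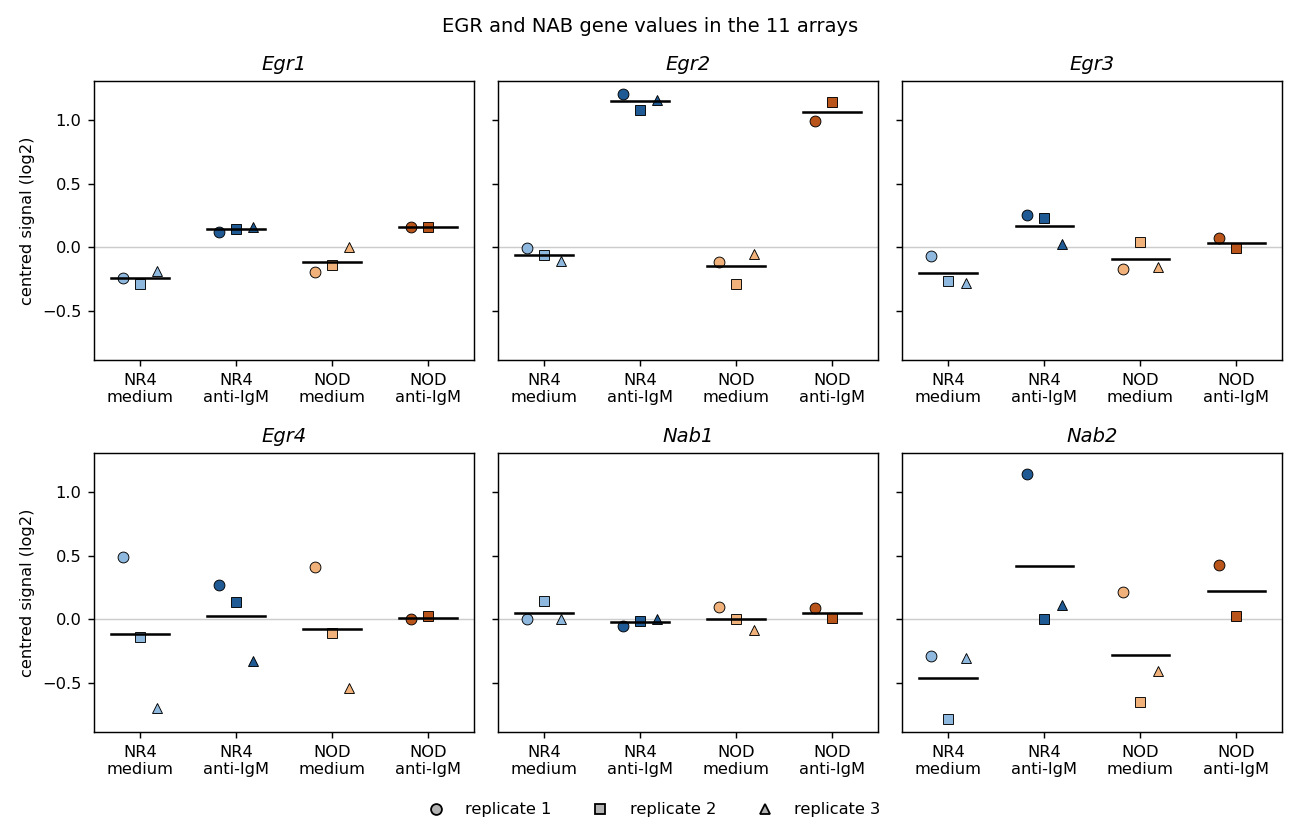
Centred log2 signal of each gene on each of the 11 arrays, by strain and culture (medium: unstimulated), with circles, squares and triangles for replicates 1, 2 and 3 and a line at the group mean. All 5 anti-IgM arrays of Egr2 sit between 0.99 and 1.20, and the 6 unstimulated ones between −0.29 and −0.01, while Egr4 and Nab2 spread widely within groups.

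Egr2, a factor known in lymphocytes for restraining activation and in B cells and T cells as an early receptor target, had the largest change of the 6. The Egr2 window printed above holds the CArG box and a pair of CRE cores, which some of the gene's other windows hold in full and others do not. Its values in unstimulated NR4 cells were −0.01, −0.06 and −0.11, and in anti-IgM NR4 cells 1.20, 1.08 and 1.15. In NOD cells they were −0.11, −0.29 and −0.05 unstimulated, and 0.99 and 1.14 with anti-IgM. Every anti-IgM array lay above every unstimulated one, with a gap far wider than the spread within any group. The group means were −0.06 ± 0.05 (SD, n = 3) and 1.15 ± 0.06 (SD, n = 3) in NR4, and −0.15 ± 0.12 (SD, n = 3) and 1.06 ± 0.11 (SD, n = 2) in NOD. The averaged response was 1.21 with a standard error (SE) of 0.07, a 95% interval of 1.05 to 1.36 and a ratio of 2.31-fold (limma, adjusted p = 7.1e-05). By p it stood at rank 2 of the 18193 genes, and by size of rise at rank 18.

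Each strain on its own gave nearly the same Egr2 change. It was 1.20 (SE 0.09, adjusted p = 0.0012) in NR4 and 1.21 (SE 0.11, adjusted p = 0.0063) in NOD, where Egr2 had the smallest p of all genes. The NOD call depends on 1 array: without anti-IgM NOD replicate 2 the change was 1.14 with an adjusted p of 0.12, and without replicate 1 it was 1.29 with an adjusted p of 0.048. Either of these fits leaves a lone anti-IgM NOD array, which is assumed to vary like the other groups. With the 2 NOD groups fitted alone it was 1.21 with an adjusted p of 0.11.

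Egr1, the founding member of the family and a classical immediate early gene, rose less. Its values were −0.24, −0.29 and −0.18 in unstimulated NR4 cells, and 0.12, 0.14 and 0.16 in anti-IgM NR4 cells. NOD cells gave −0.19, −0.14 and 0.00 unstimulated, and 0.16 and 0.16 with anti-IgM. The groups did not overlap in either strain, and the anti-IgM arrays lay within a narrow band. The averaged response was 0.32 (SE 0.06, 95% interval 0.18 to 0.46), a ratio of 1.25-fold (limma, adjusted p = 0.032), and by size of rise Egr1 stood at rank 506 of 18193. In single strains the change was 0.38 in NR4 (SE 0.08, adjusted p = 0.11) and 0.27 in NOD (SE 0.09, adjusted p = 0.70), neither of them called.

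The Egr1 call is close to the threshold. Leaving out any 1 of 9 arrays ended it, with changes of 0.30 to 0.34 and adjusted p values from 0.050 to 0.14, and it held only without unstimulated NOD replicate 3 (0.35, adjusted p = 0.048) or anti-IgM NR4 replicate 1 (0.33, adjusted p = 0.049). After quantile normalization of the centred values the change was 0.37 with an adjusted p of 0.052. The call held in 8 of 22 alternatives, with a lowest adjusted p of 0.0066 (limma). Among these 8 were the fits with the replicate number as a fixed block or, joined to strain, as a random block.

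Egr3, which overlaps in function with Egr2 in lymphocytes, was not called. Its values were −0.07, −0.27 and −0.28 in unstimulated NR4 cells, and 0.25, 0.23 and 0.03 in anti-IgM NR4 cells. In NOD cells they were −0.17, 0.04 and −0.15 unstimulated, and 0.07 and −0.00 with anti-IgM. The NR4 groups did not overlap, whereas in NOD the unstimulated replicate 2 lay between the anti-IgM arrays. The averaged response was 0.25 (SE 0.08, 95% interval 0.07 to 0.43, adjusted p = 0.21), made of 0.37 (SE 0.11) in NR4 and 0.13 (SE 0.12) in NOD.

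Egr4, the family member without the NAB-binding domain, varied among replicates far more than between cultures. Unstimulated NR4 cells gave 0.49, −0.13 and −0.70, and anti-IgM NR4 cells 0.27, 0.14 and −0.32. Unstimulated NOD cells gave 0.41, −0.11 and −0.54, and anti-IgM NOD cells 0.00 and 0.03. The 2 cultures overlapped in both strains. The averaged response was 0.12 (SE 0.23, 95% interval −0.40 to 0.63, adjusted p = 0.96), an interval that holds falls as well as rises of the size seen for Egr1.

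Of the corepressors, Nab2, in whose window no motif matched, had the larger change and Nab1 stayed near 0. Nab2 values were −0.29, −0.78 and −0.30 in unstimulated NR4 cells, and 1.14, 0.00 and 0.12 in anti-IgM NR4 cells. In NOD cells they were 0.22, −0.65 and −0.40 unstimulated, and 0.42 and 0.03 with anti-IgM. The NR4 groups did not overlap, and in NOD the unstimulated replicate 1 lay between the 2 anti-IgM arrays. The averaged response was 0.69 (SE 0.23, 95% interval 0.17 to 1.21), a ratio of 1.61-fold at rank 80 of all rises (limma, adjusted p = 0.24). The change was 0.88 (SE 0.31, adjusted p = 0.36) in NR4 and 0.51 (SE 0.35, adjusted p = 1) in NOD. These sizes depend on single arrays: the NR4 change was 0.52 without anti-IgM NR4 replicate 1, and the NOD change was 0.31 without anti-IgM NOD replicate 1 and 0.32 without unstimulated NOD replicate 2.

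Nab2 was called when the replicate number was a block in the fit, and 3 of 6 members then passed, beside 1.25% of all genes called higher in that fit. The blocked change was 0.67 (SE 0.13, limma, adjusted p = 0.036). With a random block of strain and number, whose correlation is estimated, it was 0.68 with an adjusted p of 0.076, and of 22 alternatives the fixed block alone gave a call. Differences between same-numbered arrays were 1.43, 0.78 and 0.42 for replicates 1, 2 and 3 of NR4, and 0.21 and 0.68 for replicates 1 and 2 of NOD, so all 5 were above 0. The highest Nab2 value came from anti-IgM NR4 replicate 1, which also had the highest Egr2 value, 1.20. This array had the largest mean difference between the 3′ and 5′ control probe sets of beta-actin and Gapdh, 0.96 against −0.079 to 0.29 on the other 10. The control values are centred as well and form only 2 pairs, so these differences are relative between arrays and are not ratios of 3′ to 5′ signal. Without that array the averaged response of Nab2 was 0.51 (SE 0.18, adjusted p = 0.27, no block).

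Nab1, whose promoter window holds the 3 EGR elements printed above, gave values of −0.08 to 0.14 over all 11 arrays. The unstimulated NR4 arrays gave 0.00, 0.14 and 0.00, and the anti-IgM ones −0.05, −0.01 and 0.00. NOD arrays gave 0.09, 0.00 and −0.08 unstimulated, and 0.09 and 0.01 with anti-IgM. The averaged response was −0.01 (SE 0.07, 95% interval −0.16 to 0.13, adjusted p = 0.99). This interval, which is that of the median over the gene's probe sets, does not reach the changes of Egr1, Egr2 or Nab2. By probe set, the interval of 1448781_at ran from −0.23 to 0.39 and holds the Egr1 change. Those of 1417624_at (−0.14 to 0.19) and 1438819_at (−0.48 to 0.28) do not.

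**Figure D2:**
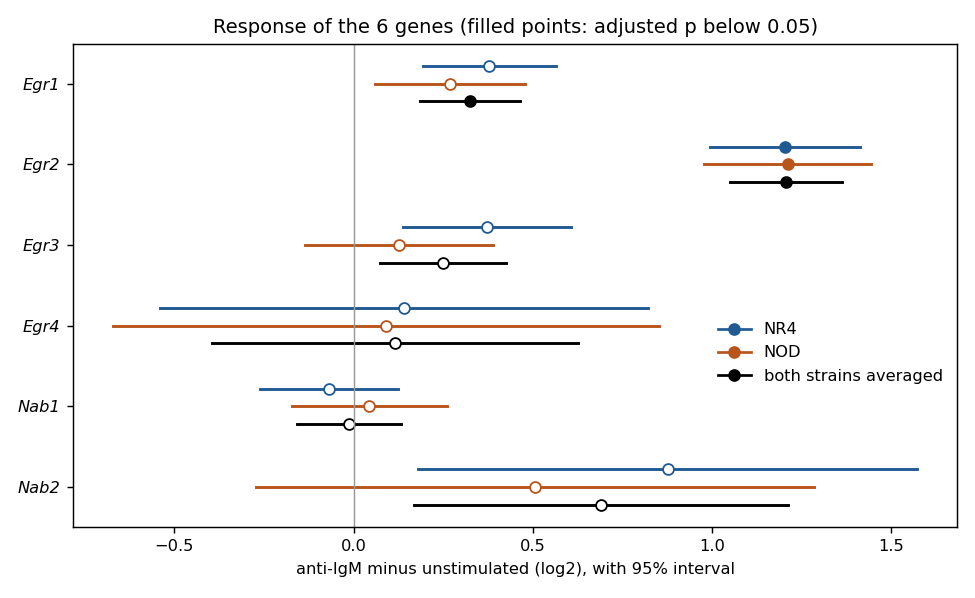
Change with anti-IgM (log2, points) and its 95% interval (lines) for the 6 genes in NR4, in NOD and averaged over both, with filled points where the adjusted p was below 0.05. The 3 Egr2 changes, 1.20 to 1.21, lie apart from all others, and the intervals of Egr4 and Nab2 are the widest.

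Counting arrays without a model gave a like picture. In NR4, 4 of the 6 genes (Egr1, Egr2, Egr3 and Nab2) had all anti-IgM arrays above all unstimulated ones, beside 5.12% of all genes. In NOD these were Egr1 and Egr2, 2 of 6 beside 8.27%, with 1 array fewer. Both strains showed it for 2 of the 6, Egr1 and Egr2, beside 2.08% of all genes.

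The probe sets of a gene measure different stretches of its transcripts, and for Egr3 they differed. Among the 10 probe sets, 2 were called higher in the averaged response, both of Egr2, beside 0.422% of 45037 tested. Probe set 1427683_at of Egr2 changed by 1.31 (SE 0.07, adjusted p = 0.00013), and 1427682_a_at by 1.11 (SE 0.09, adjusted p = 0.00089), and both were also called within each strain. The single Egr1 probe set, 1417065_at, gave the gene's own 0.32, with an adjusted p of 0.068 over the larger number of probe sets.

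Egr3 probe set 1436329_at gave −0.28, −0.46 and 0.00 in unstimulated NR4 cells and 0.27, 0.13 and 0.33 with anti-IgM. In NOD it gave −0.42, 0.00 and −0.10 unstimulated, and 0.14 and 0.32 with anti-IgM. The groups did not overlap in either strain, and the averaged response was 0.45 (SE 0.11, adjusted p = 0.12). The other Egr3 probe set, 1421486_at, gave 0.15, −0.07 and −0.56 against 0.23, 0.33 and −0.28 in NR4, and 0.09, 0.08 and −0.20 against 0.00 and −0.33 in NOD. Its groups overlapped in both strains and its averaged response was 0.05 (SE 0.16, adjusted p = 0.99), with 0.25 in NR4 and −0.16 in NOD. The median of both, used above as the gene's value, thus joins a probe set with a positive change in each strain and one without.

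The 3 Nab1 probe sets, 1417624_at, 1438819_at and 1448781_at, had averaged responses of 0.02, −0.10 and 0.08, none of them called. The widest spread was that of 1438819_at, whose anti-IgM NR4 values were −0.05, −0.80 and 0.27. Egr4 (1449977_at) and Nab2 (1417930_at) have 1 probe set each, so their values cannot be set against a companion.

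**Figure D3:**
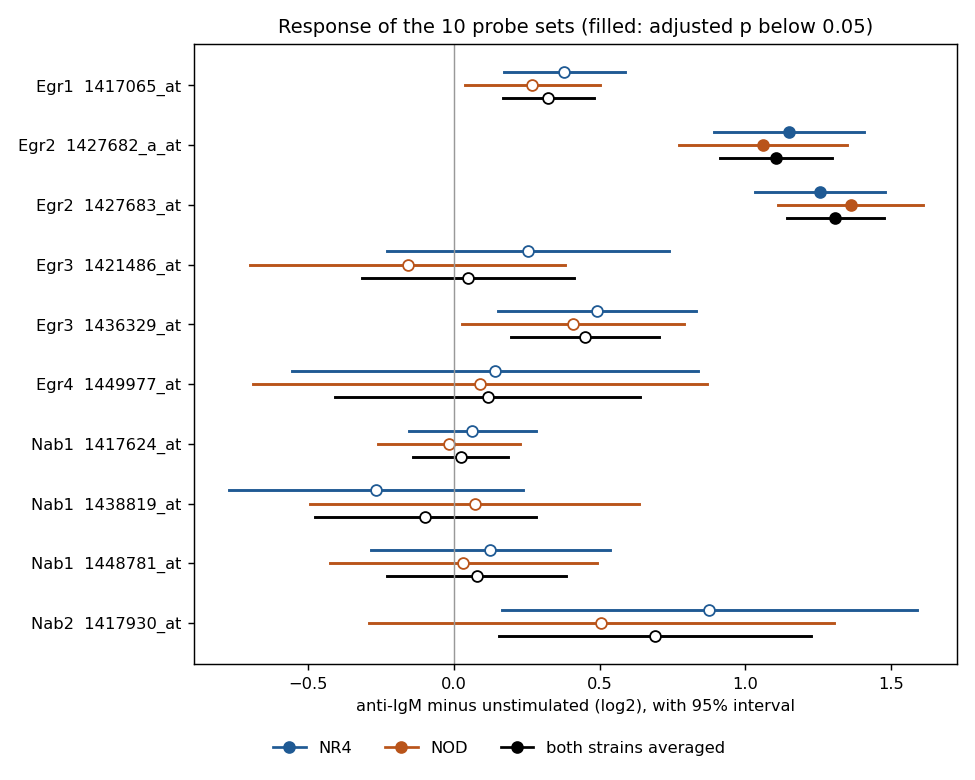
Change with anti-IgM (log2) and 95% interval of each of the 10 probe sets in NR4, in NOD and averaged, with filled points where the adjusted p over 45037 probe sets was below 0.05. Both Egr2 probe sets lie above 1 in all 3 contrasts, and the 2 Egr3 probe sets are apart, at 0.45 and 0.05 on average.

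The study set NOD beside NR4 to ask whether the chromosome 4 segment changes B cell gene expression. No EGR or NAB gene was called between the strains. In unstimulated cells 0 of 6 passed limma's test, beside 0.0605% of all genes, with anti-IgM 0 of 6 beside 0.0495%, and averaged over cultures 0 of 6 beside 0.121%. None of these 18 values had an unadjusted p below 0.05 either. Averaged over cultures, NOD minus NR4 was 0.07 for Egr1 (95% interval −0.07 to 0.21), −0.09 for Egr2 (−0.24 to 0.07) and −0.01 for Egr3 (−0.19 to 0.17). For Egr4 it was 0.01 (−0.50 to 0.52), for Nab1 0.01 (−0.13 to 0.16) and for Nab2 −0.01 (−0.53 to 0.52). The intervals of these gene values bound the strain difference closely for Egr1, Egr2, Egr3 and Nab1, and loosely for Egr4 and Nab2. For Egr3 and Nab1 this holds for the median over probe sets, since their single probe sets had wider intervals. Those of Egr3 ran from −0.42 to 0.31 (1421486_at) and from −0.22 to 0.29 (1436329_at). Those of Nab1 ran from −0.31 to 0.44 (1438819_at), from −0.26 to 0.36 (1448781_at) and from −0.08 to 0.24 (1417624_at).

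Within single cultures the strain differences ran from −0.09 (Egr2) to 0.18 (Nab2) in unstimulated cells, and from −0.19 (Nab2) to 0.07 (Nab1) with anti-IgM. For Egr3 the difference was 0.11 when unstimulated (95% interval −0.12 to 0.35) and −0.13 with anti-IgM (−0.40 to 0.13).

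The interaction asks whether the response itself differed, NOD response minus NR4 response. Again 0 of the 6 were called, beside 0% of all genes, and none had an unadjusted p below 0.05, against 255 of 18193 genes. The difference in response was 0.01 for Egr2 (95% interval −0.31 to 0.32), −0.11 for Egr1 (−0.39 to 0.17) and −0.25 for Egr3 (−0.60 to 0.11). For Nab1 it was 0.11 (−0.18 to 0.40), for Egr4 −0.05 (−1.07 to 0.97) and for Nab2 −0.37 (−1.42 to 0.67). A difference in the Egr2 response as large as the response itself lies outside its interval. For Egr1, Egr3 and Nab2 a response smaller in NOD by the size of the averaged response lies inside the interval and one larger by that size lies outside, and for Egr4 both lie inside.

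Nab2 and Egr4 also varied with the replicate number given in the labels. Nab2 was highest on number 1 in all 4 groups and lowest on number 2. Egr4 was lowest on number 3 in each of the 3 groups that have one. In the blocked fit, Egr4 on number 2 was −0.31 and on number 3 −0.85 relative to number 1 (limma, adjusted p = 0.023), and Nab2 was −0.72 and −0.50 (adjusted p = 0.049). This test was added after the values were seen, and 6.84% of all genes passed it. For Egr1, Egr2, Egr3 and Nab1 its adjusted p ran from 0.46 to 0.85.

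**Figure D4:**
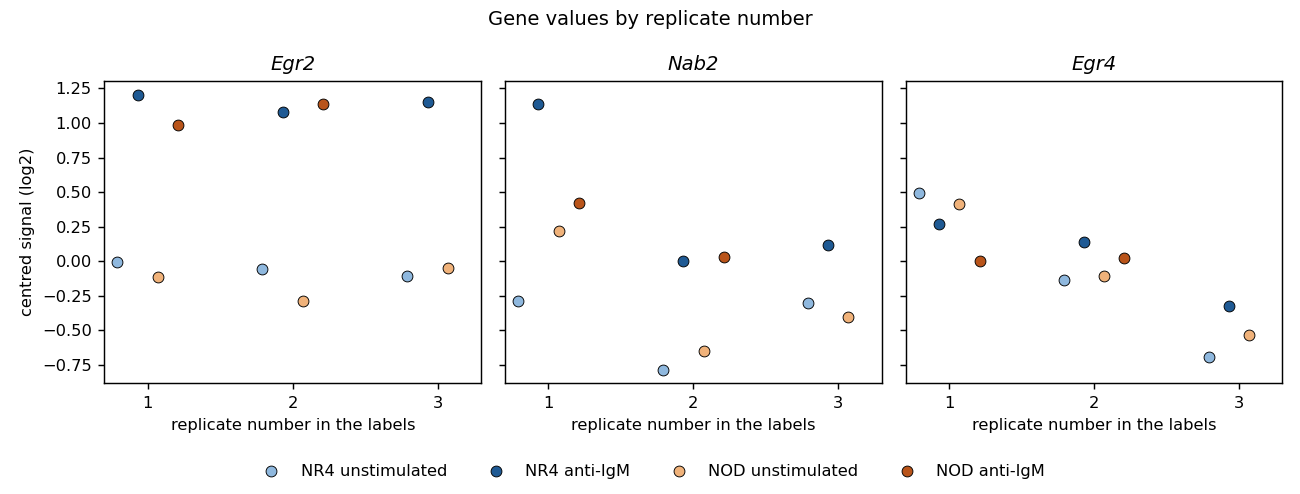
Centred log2 signal of Egr2, Nab2 and Egr4 against the replicate number in the labels, 1 point per array, coloured by group. Egr2 separates by culture at each number, Nab2 is highest at number 1 in all 4 groups, and Egr4 is lowest at number 3 in the 3 groups that have one.

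Some marker lists, of other cells and of B cells themselves, moved with the number. The mean of 6 NK and cytotoxic markers was lowest on number 3 in the 3 groups that have one, at −0.0069 in unstimulated NOD, −0.71 in unstimulated NR4 and −0.37 in anti-IgM NR4. The mean of 7 pan B cell markers was lowest on number 2 in all 4 groups, as Nab2 was, at 0.08 in unstimulated NOD, −0.32 in anti-IgM NOD, −0.08 in unstimulated NR4 and −0.36 in anti-IgM NR4. It was highest on number 3 in the 3 groups that have one, at 0.14, 0.31 and −0.17 for unstimulated NOD, unstimulated NR4 and anti-IgM NR4. The means of the NK markers and of the monocyte and macrophage markers were highest on number 1 in all 4 groups, as Nab2 was. In the T cell, dendritic cell, neutrophil and erythroid lists, no number was highest or lowest in every group that has it. The part of these markers in the Egr4 and Nab2 values was not tested. Across cultures, 3 of 7 pan B cell markers (Cd79b, Ms4a1 and Cd22) were called lower in the averaged response, beside 0.841% of all genes, with a list median of −0.38. Their mean ran from −0.08 to 0.31 on unstimulated arrays and from −0.36 to −0.08 on anti-IgM arrays. Of the dendritic cell markers 1 of 6 (Itgax) was called higher, beside 0.715% of all genes, and of 7 T cell, 6 NK, 6 monocyte, 5 neutrophil and 3 erythroid markers 0 were called. Their part in the EGR changes was not tested. Which markers are absent cannot be read from centred values, and in pooled cells fewer cells of a type and less RNA per cell cannot be told apart.

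Upstream of the EGR genes, 16 of 20 listed genes for SRF, its cofactors, CREB family factors and MAP kinases were measured. In the averaged response 1 rose, beside 0.715% of all genes, 1 fell, beside 0.841%, and 14 did not pass. The median was −0.09 against 0.0034 over all genes. Crem, a CREB family factor with repressing isoforms, rose by 0.42 (SE 0.08, adjusted p = 0.029). Elk3, a ternary complex factor that can repress SRF targets, fell by 0.50 (SE 0.08, adjusted p = 0.017). Srf itself, named after its values were seen, had a change of −0.10 (SE 0.11, adjusted p = 0.90). The Crem call held in 3 of the 11 fits that left out 1 array (unstimulated NR4 replicates 1 and 3 and anti-IgM NR4 replicate 1), with adjusted p values up to 0.12 otherwise. The Elk3 call was lost without unstimulated NOD replicate 2 (−0.48, adjusted p = 0.061) or anti-IgM NOD replicate 2 (adjusted p = 0.10), and with the mean of its probe sets (−0.45, adjusted p = 0.063). With its lowest-numbered probe set alone, Crem changed by 0.73 (adjusted p = 0.0059).

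Of the coactivators, NuRD subunits and other GC-box factors through which EGR and NAB proteins act or compete, 17 of 18 were measured. In the averaged response limma called 0 of them higher, beside 0.715% of all genes, and 0 lower, beside 0.841%. With shares this small, 0 calls in a list of this length do not set it apart from all genes. The median was 7e-05 against 0.0034 over all genes.

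Among genes described as EGR targets in lymphocytes and other cells, 36 of 38 were measured, of which 4 rose, beside 0.715% of all genes, 2 fell, beside 0.841%, and 30 did not pass. Their median was 0.11 against 0.0034 over all genes, and 25 of the 36 values were above 0. Ier3, an early response gene, rose by 0.87 (SE 0.15, adjusted p = 0.023). Nfatc1, a calcium-driven factor of lymphocyte activation, rose by 0.79 (SE 0.10, adjusted p = 0.0051) and was the 1 target called in NR4 alone, by 0.82 (adjusted p = 0.038). Bhlhe40, a helix-loop-helix repressor, rose by 0.68 (SE 0.10, adjusted p = 0.011). Id2, an inhibitor of E proteins, rose by 0.52 (SE 0.09, adjusted p = 0.023).

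The falling targets were Id3, the relative of Id2 that also inhibits E proteins, and Dgka, a diacylglycerol kinase that dampens antigen receptor signals and is described as a target of EGR2 in T cells. Id3 changed by −0.77 (SE 0.15, adjusted p = 0.032) and Dgka by −0.54 (SE 0.09, adjusted p = 0.017). No gene of these 3 lists was called between strains or in the interaction.

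Of these 6 calls, that of Nfatc1 held in all 11 fits that left out 1 array. Bhlhe40 lost its call without anti-IgM NOD replicate 1 (0.66, adjusted p = 0.054) or replicate 2 (0.71, adjusted p = 0.056). Dgka lost it without unstimulated NOD replicate 2 or either anti-IgM NOD array (adjusted p of 0.057 to 0.079), and Id2 also without unstimulated NOD replicate 3 (adjusted p of 0.063 to 0.11). Ier3 kept it in 6 of 11 fits and lost it without unstimulated NOD replicate 3, either anti-IgM NOD array, unstimulated NR4 replicate 2 or anti-IgM NR4 replicate 3 (adjusted p of 0.052 to 0.10). Id3 kept it only without anti-IgM NOD replicate 1, unstimulated NR4 replicate 2 or anti-IgM NR4 replicate 1, with adjusted p values up to 0.16 otherwise. Other processing ended the calls of Ier3 with quantile normalization (1.01, adjusted p = 0.061), Id2 with its lowest-numbered probe set (0.58, adjusted p = 0.067) and Id3 with array weights (−0.62, adjusted p = 0.075).

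**Figure D5:**
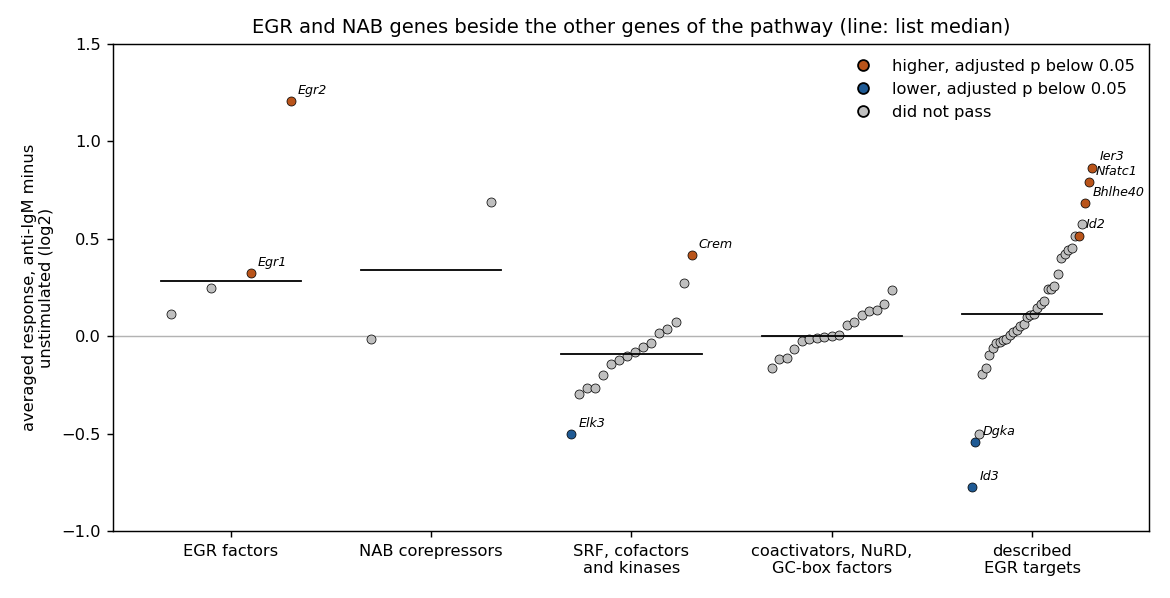
Averaged response (log2, 1 point per gene) of the EGR and NAB genes and of 3 lists around them, with a line at each list's median and colours for genes called higher or lower. Egr2, at 1.21, is above every gene of the other lists, whose highest is Ier3 at 0.87 and lowest Id3 at −0.77.

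The genes whose values followed Egr2 most closely over the 11 arrays were Mapk6 (Pearson r = 0.967), Tomm20 (r = 0.964) and Gdap10 (r = 0.964). Mapk6, an atypical MAP kinase, had an averaged response of 0.71 (SE 0.07, adjusted p = 0.0015) and Gdap10 of 1.30 (SE 0.11, adjusted p = 0.00042). Tomm20, a mitochondrial import receptor, had 0.30 (SE 0.06, adjusted p = 0.053). Closest to Egr1 were Nkx6-2 (r = 0.955), Nr4a1 (r = 0.952) and Bcl6b (r = 0.948), with averaged responses of 0.54, 1.43 and 1.14. These correlations describe 11 arrays that share their culture groups, so any gene that separates the cultures cleanly scores high.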

How the data were processed

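The deposited table holds log2 values made by the authors with RMA (background correction, quantile normalization, median polish), per the submitters' processing notes. The software version is not given in the sources used here, and log base 2 was taken from RMA's usual scale. Each of the 45101 probe sets had a median of 0 over the arrays, so the deposited values had also been centred, which removes levels. Arrays have no read depth, and their number limits the precision. Gene names came from the platform annotation, and 64 control probe sets were left out of the tests. With limma 3.58.1 (R 4.3.3), a linear model held 1 mean per group over the 11 arrays, which leaves 7 residual degrees of freedom, followed by eBayes, Benjamini-Hochberg adjustment over all genes and a two-sided threshold of 0.05. Figures and motif searches used Python 3.11.15. The motif search was tested on made sequences, and the main fit on simulated independent values with no effect of the replicate number. The alternatives were not tested in this way.

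The members and lists were chosen with earlier results of these data known. Named genes are the members, up to 4 called genes each way per list, and the 3 genes most correlated with each called member. Deviations of same-numbered arrays correlated at 0.59, 0.21 and 0.51 (unstimulated NOD with unstimulated NR4) and 0.33, 0.22 and 0.47 (NR4 cultures). For unstimulated NOD with anti-IgM NR4 they were 0.35, 0.061 and 0.51. Unlike-numbered arrays of these groups ran from −0.55 to 0.18, a range that holds the 0.061 of number 2. The labels state no pairing, so the main fit held no block. The number entered only the alternatives, the same-numbered differences and the test of the number itself. Groups with anti-IgM NOD have only 2 pairs (0.63 and 0.12, or 0.37 and −0.12), and their pairing is not established. Alternatives were the replicate block, a random block, other gene values and normalizations, array weights, robust spread, fewer groups, and leaving out arrays. The other normalizations, quantile normalization among them, were run on the deposited centred values.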

Additional observations from a re-analysis of the deposited data

How the results depend on the processing

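The count of 2 members called in the averaged response was 1 with the lowest-numbered probe set or quantile normalization, 3 with the replicate block, and 1 to 2 when 1 array was left out. In NR4 the count of 1 became 2 with a random block of strain and number, through Egr1 (0.38, adjusted p = 0.024). In NOD the count of 1 was 0 with the 2 groups fitted alone and 0 to 1 when 1 array was left out. Leaving out all arrays numbered 1, 2 or 3, an alternative chosen after seeing the data that removes up to 4 arrays, gave 0, 0 and 1 in the averaged response and 0 each time in NR4 and in NOD, although the averaged Egr2 change stayed at 1.25, 1.15 and 1.22. The averaged response of all genes had 0, 0 and 64 calls in those fits. Of the 10 probe sets, 2 passed as reported, beside 0.422% of all probe sets called higher, and 4 with the random block. The shares of all genes and probe sets called with the random block are not given here. Its counts are therefore not a result about the members alone. The cause of these changes was not tested.

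Apart from Nab2 in the averaged response (0.67, limma, adjusted p = 0.036), the replicate block changed no call of a member gene, and 3 of the 10 probe sets passed with it. That block called 1.25% of all genes higher, against 0.715% without it, and its share of all probe sets is not given here. With 1 array left out, the Egr2 response ranged from 1.17 to 1.25 averaged, 1.18 to 1.24 in NR4 and 1.14 to 1.29 in NOD, and that of Nab2 from 0.51 to 0.82 averaged, with adjusted p from 0.18 to 0.53. The strain comparisons and the interaction gave 0 members called under all alternatives run. Of 948 values of single members under an alternative, 922 kept their side of the threshold, 24 lost a call, 2 gained one, and no called value changed sign, whereas 75 values with no call did.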
